A study of Mus musculus with 15 samples.

Results

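The genes described here encode the nuclear subunits of the 5 oxidative phosphorylation complexes of the mouse. They were taken as the protein-coding rows of the count table whose symbols begin with Ndufa, Ndufb, Ndufc, Ndufs, Ndufv, Uqcr, Cox4 to Cox8 or Atp5, together with Cyc1, Cycs and Sdha to Sdhd. The pattern matched 108 rows, of which 13 were not protein-coding, and 95 genes of the 52636 rows of the table remained. They comprised 38 complex I genes, 8 complex I assembly factors whose symbols begin with Ndufaf, 4 genes of complex II, 9 of complex III (Cyc1 included), Cycs, 18 of complex IV and 17 of complex V. A filter on low counts kept 89 of the 95, and the 6 that failed it (Cox4i2, Cox6a2, Cox7a1, Cox7b2, Cox8b and Cox8c) all belonged to complex IV.

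RNA was sequenced from 15 libraries of mouse epiblast-like cells (EpiLCs), the in vitro counterpart of the early post-implantation epiblast. The line, CRAFR26, is an embryonic stem cell line with a c-RAF kinase construct that raises ERK signalling when 4-hydroxytamoxifen (4OHT) is added. Embryonic stem cells were first passaged for 2 passages toward the state that the submitters call RSC. They were then kept for 48 h in N2B27 with bFGF at 12 ng/ml, Activin A at 20 ng/ml and XAV939, a Wnt pathway inhibitor, at 1 µM. Every group, the controls included, had spent 2 h with the FGF receptor inhibitor PD17 (PD173074) at 250 nM. Group 0h (n = 3) was then taken without 4OHT. Groups 2h (n = 4) and 4h (n = 4) had 2 h and 4 h of 4OHT at 250 nM, and group rev (n = 4) had 4 h of 4OHT followed by 2 h more with a MEK inhibitor. No group had the same total time without the MEK inhibitor, so the inhibitor and the added time cannot be told apart. Likewise, no group had 2 h or 4 h more in culture without 4OHT. In comparisons with 0h, ERK induction, 4OHT itself and the added time therefore cannot be told apart. The line was used as 2 clones, clone 4 and clone 8, with 2 libraries each per group except 1 of clone 4 at 0h. Nothing in the labels says that the libraries of a clone came from separate cultures, so p-values measure only the spread between these libraries, which may be technical.

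Oxidative phosphorylation takes place in the inner mitochondrial membrane. Complexes I and II pass electrons from NADH and succinate to ubiquinone, complex III passes them on to cytochrome c, and complex IV passes them to oxygen. Proton pumping by complexes I, III and IV drives complex V, the ATP synthase. Most subunits are encoded in the nucleus and a smaller core in mitochondrial DNA, so the complexes are assembled from both genomes. Pluripotent cells change their balance of glycolysis and respiration as they leave the naive state.

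The promoters of these genes are known for sites of NRF1, of ETS factors such as GABP, and of YY1. RefSeq windows of 300 bases, 250 before and 50 after the start (build GRCm38.p6), were found for 77 of the 95 genes, 75 by symbol and 2 by a RefSeq synonym. Both strands were searched. The NRF1 motif (GCGCA and GCGC with any 1 base between them) lay in 23.4% of the 77 windows, against 11.0% of the windows of tested protein-coding genes and 4.6% of all 32851 windows. The ETS motif CCGGAAG lay in 22.1%, against 18.8% and 8.86%. The YY1 motif AAGATGGC lay in 10 of the 77, against 4.84% and 2.75%. The Sp motif GGGCGG lay in 46.8%, against 67.5% and 35.7%, and the CRE motif TGACGTCA in 6.49%, against 3.4% and 1.79%. The promoters of 5 genes are printed, because results turn on the gene or because the promoter holds 2 of the motifs: the 150 bases just before the start, 5′ to 3′ on the strand of the gene, with motif matches on either strand in capitals (CTTCCGG is the ETS motif on the other strand). Atp5e (chr2:174464102-174464251, minus strand) and Uqcrh (chr4:116075071-116075220, minus strand) hold an ETS match, and Atp5e also an Sp match. Atp5h (chr11:115419920-115420069, minus strand) holds an NRF1 and an ETS match, and Ndufa11 (chr17:56717612-56717761, plus strand) an NRF1 match. Ndufa3 (chr7:3617223-3617372, plus strand), a gene that moved the other way, holds an Sp match. The windows also hold a CRE match for Ndufa11 and a YY1 match for Ndufa3, outside the printed bases. The printed genes are a selection and do not tie a motif to a direction. The windows of Ndufb3, Ndufa7 and Ndufv1, which fell, hold none of the motifs. Atp5g2, which rose, holds an NRF1 match. So do Sdha and Cox6a1, which were not called between the controls and the longest induction.
Atp5e: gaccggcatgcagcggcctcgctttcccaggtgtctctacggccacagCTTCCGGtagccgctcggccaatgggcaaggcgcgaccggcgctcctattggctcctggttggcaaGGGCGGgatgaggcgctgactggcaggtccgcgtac
Uqcrh: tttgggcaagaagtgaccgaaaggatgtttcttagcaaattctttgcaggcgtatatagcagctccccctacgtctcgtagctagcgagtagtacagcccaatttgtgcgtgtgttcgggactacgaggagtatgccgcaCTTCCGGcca
Atp5h: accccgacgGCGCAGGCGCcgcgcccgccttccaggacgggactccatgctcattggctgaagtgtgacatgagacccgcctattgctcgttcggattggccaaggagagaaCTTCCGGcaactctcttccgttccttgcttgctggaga
Ndufa11: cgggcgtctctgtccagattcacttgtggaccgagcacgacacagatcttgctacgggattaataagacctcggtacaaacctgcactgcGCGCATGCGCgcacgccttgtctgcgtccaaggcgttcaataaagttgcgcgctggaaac
Ndufa3: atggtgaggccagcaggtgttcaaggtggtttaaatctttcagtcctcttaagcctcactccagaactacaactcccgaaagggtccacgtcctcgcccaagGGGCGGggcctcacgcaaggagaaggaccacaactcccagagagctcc

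The libraries were deep enough to follow most of these genes, but not equally so. Total counts ran from 8667880 to 13004556 at 0h, 2h and rev and from 1552022 to 6658950 at 4h, and the 4h libraries held 3494 to 10877 counts of the 95 genes against 20645 to 54632 in the others. Depth and the 4h group therefore cannot be told apart. Of 10 genes of ERK output, 8 were called higher in 4h vs 0h (Spry4 by 6.10 on the log2 scale, SE 0.183). The 7 epiblast markers were detected in every group. Their summed level was 1261.5 to 1535.8 CPM (counts relative to library size, scaled by the trimmed mean of M-values, TMM) in the 0h libraries, 1143.9 to 1380.5 in those of 2h, 817.8 to 864.4 in those of 4h and 1015.8 to 1122.0 in those of rev. Dnmt3b made up most of that sum, and of the 7 markers 4 were called lower and 2 higher (Sox2 by 2.34 and Otx2 by 1.13) in 4h vs 0h. The 5 naive markers summed to 15.7 to 22.9 CPM at 0h and 37.0 to 136.1 at 4h, and the 4 neural markers to 20.5 to 26.0 and 45.8 to 65.6. The 5 fibroblast feeder markers summed to 4.21 to 10.7 CPM at 0h, 0.377 to 6.11 at 4h and 7.99 to 17.4 in rev, with 2 of 3 tested called lower in 4h vs 0h and 3 of 3 higher in rev vs 4h. The 4 trophoblast markers summed to 0.121 to 1.62 CPM at 0h and 1.37 to 6.91 at 4h, where Gata3 was called higher. The part of these marker shifts in the results was not tested. In bulk RNA, fewer cells of a type and less RNA per cell cannot be told apart.

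At the level of the whole set, the nuclear subunit transcripts were lower after 4 h of induction and back near the control level in rev. At 4h vs 0h, 35 of the 89 tested genes fell and 6 rose. At rev vs 4h, 39 rose and 2 fell. No gene of the set was called at 2h vs 0h, and 1 was called at rev vs 0h. The test was edgeR's quasi-likelihood F test with Benjamini-Hochberg adjustment over all 13451 genes, called at an adjusted p under 0.05. At 4h vs 0h, 39.4% of all tested genes were called, 18.9% lower and 20.5% higher, so the 41 called members (35 lower) were about as many as the background gives, with a different split between the directions. The median log2 fold change of the 89 was −0.30, beside 0.03 for all tested genes, with 69 below 0 and 20 above. At rev vs 4h, 30.8% of all genes were called (15.1% higher, 15.6% lower), and the medians were 0.29 and 0.02. At 4h vs 2h, 39 fell and 3 rose, against 19.2% and 19.7% of all genes, with medians of −0.36 and −0.01 (38.9% of all genes called). In 4h vs 0h, all 4h libraries lay below all 0h libraries for 33 members and above them for 6, beside 18.1% and 18.2% of all genes, and in rev vs 4h the counts were 30 above and 1 below, beside 11.9% and 10.8%. These comparisons share the 4h libraries, so the falls and the later rises are not independent of each other.

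**Figure D1:**
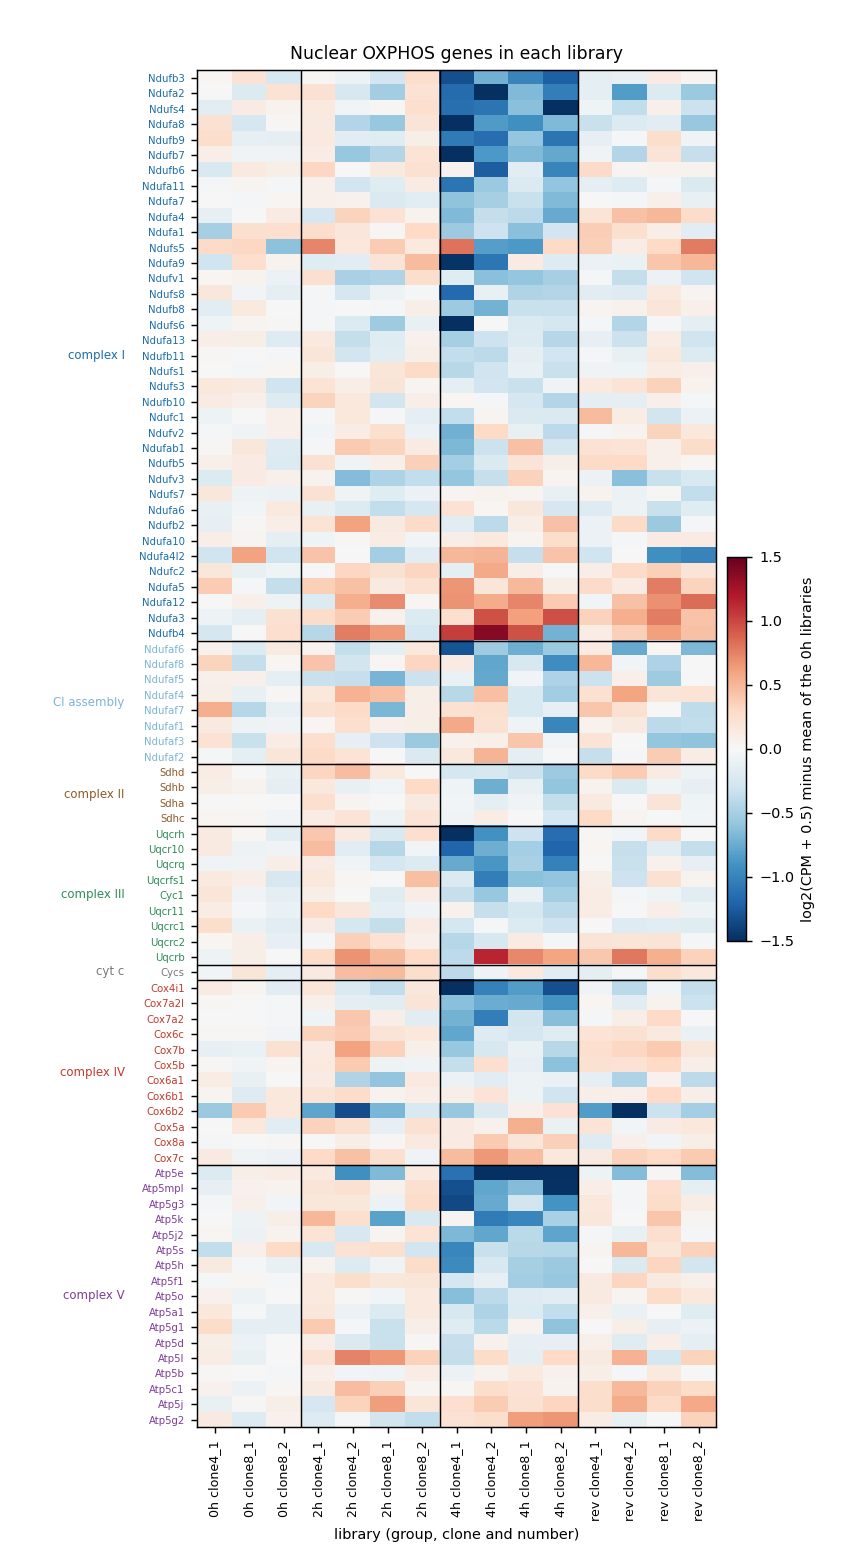
Heat map of 88 of the 89 tested genes (rows, ordered by complex) in the 15 libraries (columns, by group), coloured by log2(CPM + 0.5) minus its mean over the 0h libraries, with colours capped at −1.5 and 1.5. The 4h columns carry most of the low values, with library medians over all 89 genes from −0.36 to −0.20, and the 2h and rev columns lie near 0.

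The summed level of the 89 tested genes was 2807.1, 2684.1 and 2603.2 CPM in the 0h libraries (clone4_1, clone8_1, clone8_2). The other groups are given throughout as clone4_1, clone4_2, clone8_1 and clone8_2, and here the sum was 2941.8, 2689.4, 2548.7 and 2925.7 in those of 2h, 2132.0, 2304.8, 2474.7 and 2194.0 in those of 4h, and 2805.6, 2620.6, 2909.2 and 2599.5 in those of rev. All 4 libraries of the 4h group lay below all 11 others. The summed level of the tested genes was lower on average at 4h in each complex too, without overlap between 4h and the other groups in complexes I to IV and with a small overlap with 2h in complex V. Complex I went from 631.7 ± 16.4 CPM (SD, n = 3) at 0h to 499.2 ± 47.1 (n = 4) at 4h and 632.2 ± 40.9 (n = 4) in rev. Complex III went from 288.5 ± 27.1 to 223.8 ± 20.6 and 283.7 ± 17.2. Complex IV went from 333.7 ± 5.30 to 268.7 ± 25.5 and 329.5 ± 21.9, and complex V from 1246.2 ± 48.4 to 1110.0 ± 57.7 and 1283.2 ± 68.4. The 4 complex II genes went from 144.5 ± 4.72 to 125.5 ± 13.3 and 151.0 ± 10.8.

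**Figure D2:**
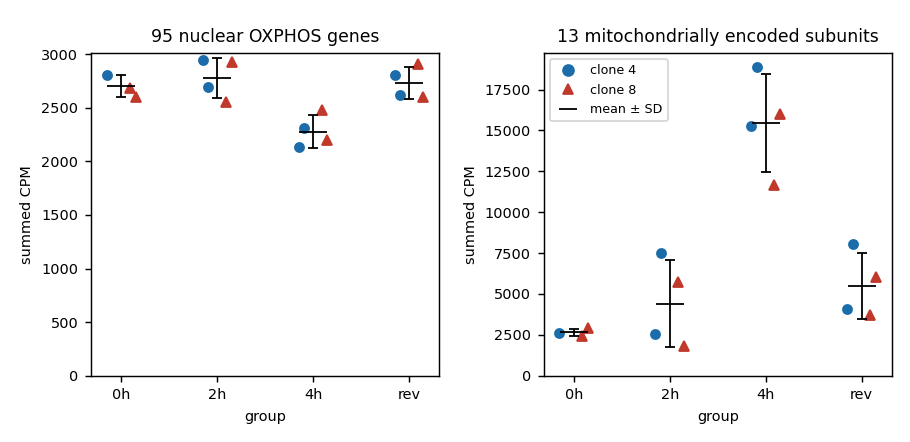
Summed CPM of the 95 nuclear genes (left) and of the 13 mitochondrially encoded subunits (right) in every library by group, with circles for clone 4, triangles for clone 8 and bars for the mean and SD. On the left the 4h libraries lie between 2134 and 2476 CPM, below all others, and on the right between 11640 and 18880, above all others.

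These values are on the TMM scale. With libraries scaled by total count instead, the median of all genes itself moved to −0.725 in 4h vs 0h and 0.446 in rev vs 4h, and the subunits to −1.040 and 0.717, with 69 called lower and 0 higher in 4h vs 0h, where 46.2% and 3.54% of all genes were. In rev vs 4h, 44 were called higher and 0 lower on that scale, beside 20.6% and 2.83%. As a share of what was counted once mitochondrial genes and the top 20 genes were set aside, which uses no TMM factor, the 95 genes made up 0.841% ± 0.029 in the 0h libraries, 0.826% ± 0.0499 in those of 2h, 0.693% ± 0.0397 in those of 4h and 0.842% ± 0.0437 in those of rev.

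Complex I had the most members. Of its 38 genes, 15 fell and 2 rose in 4h vs 0h, with a median log2 fold change of −0.33. Ndufs1, which carries iron-sulphur clusters of the matrix arm, was at 43.4, 42.8 and 44.3 CPM in the 0h libraries, 46.2, 43.2, 49.3 and 53.0 in those of 2h, 32.4, 35.3, 40.1 and 34.3 in those of 4h, and 42.0, 41.6, 46.9 and 46.0 in those of rev. Every 4h library was below every other library. The gene fell by 0.27 on the log2 scale (SE 0.0959, adjusted p = 0.0285) and rose by 0.31 in rev (SE 0.0892, adjusted p = 0.0111). Ndufv1, the subunit that takes electrons from NADH through flavin, fell by 0.49 (SE 0.172, adjusted p = 0.029) and was at 0.29 (adjusted p = 0.182) in rev vs 4h. Both calls in 4h vs 0h were marginal: that of Ndufs1 was lost in 3 and that of Ndufv1 in 5 of 7 fits, each with 1 library omitted, with the largest adjusted p at 0.161 and 0.0811, both without 0h clone4_1. The core subunit Ndufs8 also fell, by 0.48, and Ndufs7, another core subunit, stood at −0.02 and was not called.

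The deepest falls of complex I were in accessory subunits, which surround the catalytic core. Ndufb3 (ENSMUSG00000026032, chr1:58586384-58595964, GRCm38, plus strand), of the membrane arm, was at 6.96, 8.02 and 5.69 CPM in the 0h libraries, 6.92, 6.46, 5.49 and 8.30 in those of 2h, 2.44, 3.95, 3.19 and 2.64 in those of 4h, and 6.17, 6.30, 7.47 and 7.06 in those of rev. The 4h libraries lay below all others without overlap. The fall was 1.13 on the log2 scale (SE 0.215, adjusted p = 0.000304), or 2.18-fold, and the rise in rev 1.09 (SE 0.205, adjusted p = 0.000364). Ndufs4, an accessory subunit of the matrix arm whose loss causes Leigh-like disease in mice, went from 13.6, 16.7 and 15.9 CPM in the 0h libraries through 17.1, 14.9, 15.5 and 18.3 in those of 2h to 6.72, 6.91, 9.79 and 4.52 in those of 4h and 14.7, 11.8, 16.2 and 12.2 in those of rev. Again no 4h library reached any other. Its log2 fold change was −1.09 (SE 0.185, adjusted p = 8.84e-05) and then 0.95 (SE 0.175, adjusted p = 0.000282). Ndufa2 (−1.11) and Ndufa8 (−1.06) fell to a like extent, as did Ndufb9 (−0.99) and Ndufb7 (−0.91), and all 4 rose in rev by 0.69 to 1.00. Smaller falls were those of Ndufa11 (−0.57), Ndufa7 (−0.53), Ndufa4 (−0.53), Ndufa9 (−0.50) and Ndufb8 (−0.46). In clone 4, Ndufa9 was at 15.71 CPM at 0h and 6.72 and 8.89 at 4h. In clone 8 it was at 23.33 and 20.23 at 0h and 21.17 and 16.96 at 4h, which overlap. Ndufa4, which was first assigned to complex I and is now placed in complex IV, went from 22.7 ± 2.03 CPM at 0h to 15.5 ± 2.16 at 4h and 29.2 ± 2.77 in rev. In counts thinned to 1 depth its 4h vs 0h change was −0.205 (adjusted p = 0.524). Its relative Ndufa4l2, known as a hypoxia-induced gene, stayed at or below 1.34 CPM in every library and was not called.

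The exceptions in complex I were Ndufa3 and Ndufa12, both accessory subunits. Ndufa3 (ENSMUSG00000035674, chr7:3617373-3620327, plus strand) was at 4.32, 4.08 and 5.45 CPM in the 0h libraries, 5.67, 6.10, 4.80 and 3.91 in those of 2h, 5.50, 9.38, 7.28 and 9.42 in those of 4h, and 5.96, 6.92, 8.18 and 6.33 in those of rev. The 4h libraries were above those of 0h, the lowest of them by a small margin, and overlapped with rev. It rose by 0.80 (SE 0.22, adjusted p = 0.0063), and in rev vs 4h it stood at −0.24 (adjusted p = 0.404). Its exons share positions with Tfpt on the opposite strand, and the handling of strand in the counts is not given in the sources used here. With total count scaling it stood at 0.049 (adjusted p = 0.915), or 0.77 relative to the shifted median of all genes. In counts thinned to 1 depth its rise was lost (0.037, adjusted p = 0.95). Ndufa12, a late-joining subunit of the matrix arm, was at 8.21, 8.62 and 7.75 CPM in the 0h libraries, 7.04, 12.20, 13.69 and 8.36 in those of 2h, 13.4, 12.3, 13.9 and 10.9 in those of 4h, and 7.92, 11.25, 13.53 and 15.05 in those of rev. The 4h libraries lay above those of 0h, a rise of 0.65 (SE 0.216, adjusted p = 0.0199), and overlapped with 2h and rev. Ndufb4 had a larger log2 fold change of 1.21 that was not called (adjusted p = 0.0547), with 4h libraries at 2.44, 3.21, 2.28 and 0.377 CPM.

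The 8 assembly factors, which help to build complex I and are not part of the finished enzyme, moved less. Their median in 4h vs 0h was −0.12, and Ndufaf6 was the 1 that was called. Ndufaf6 (ENSMUSG00000050323, chr4:11051045-11076205, minus strand) was at 5.51, 4.48 and 5.81 CPM in the 0h libraries and 1.83, 3.46, 2.96 and 3.39 in those of 4h, with no overlap, and at 5.75, 2.89, 5.36 and 3.11 in rev, which overlapped with 4h. The 1.83 CPM of 4h clone4_1 is what 3 counts come to in that library. The fall of Ndufaf6 was 0.80 (SE 0.275, adjusted p = 0.0254), and the rise in rev was not called (0.51, adjusted p = 0.155). The call in 4h vs 0h was lost in 4 of 7 fits with 1 library omitted (largest adjusted p 0.097, without 0h clone4_1). It was also lost with the replicate number as a block (adjusted p = 0.0658). The difference between assembly factors and subunits was not tested.

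Complex II, succinate dehydrogenase, is also an enzyme of the tricarboxylic acid cycle and has no mitochondrially encoded subunit. Sdhd (ENSMUSG00000000171, chr9:50596357-50603812, minus strand), a membrane anchor, was at 24.8, 22.8 and 21.1 CPM in the 0h libraries, 28.7, 31.8, 25.4 and 23.0 in those of 2h, 18.9, 19.3, 18.2 and 15.5 in those of 4h, and 27.9, 30.0, 25.0 and 21.7 in those of rev. The 4h libraries lay below all others. It fell by 0.39 (SE 0.113, adjusted p = 0.0092) and rose by 0.53 in rev (SE 0.106, adjusted p = 0.000609). The 4h vs 0h call was lost in thinned counts (adjusted p = 0.192) and without the clone term (0.0672). The catalytic subunits were not called in 4h vs 0h: the flavoprotein Sdha stood at −0.16 (SE 0.0991, adjusted p = 0.221) and the iron-sulphur subunit Sdhb at −0.36 (SE 0.15, adjusted p = 0.0584). Against 2h, Sdha fell by 0.26 and Sdhb by 0.45, and Sdhd by 0.59. Those of Sdha and Sdhb were lost in 4 and 3 of the fits without 1 library. Sdhc, the other anchor, stood at −0.06 in 4h vs 0h and was not called.

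Complex III had 5 falls, 1 rise and 3 uncalled genes in 4h vs 0h, with a median of −0.38. Uqcrh (ENSMUSG00000063882, chr4:116066965-116075071, minus strand), the acidic hinge subunit near the cytochrome c1 site, was at 24.5, 22.6 and 19.7 CPM in the 0h libraries, 29.4, 24.4, 18.8 and 26.6 in those of 2h, 6.72, 11.6, 17.8 and 9.80 in those of 4h, and 22.5, 21.5, 27.1 and 22.1 in those of rev. The 4h libraries were the lowest 4, although clone8_1 came close to the lowest 2h library. Uqcrh fell by 0.91 (SE 0.212, adjusted p = 0.00222) and rose by 0.98 in rev (SE 0.201, adjusted p = 0.00111). The small subunits Uqcr10 (−0.90) and Uqcrq (−0.78) fell and rose again by 0.67 and 0.69. Of the redox centres, Uqcrfs1, the Rieske iron-sulphur protein, fell by 0.62 (SE 0.168, adjusted p = 0.00564) and Cyc1, cytochrome c1, by 0.38 (SE 0.119, adjusted p = 0.0141). Both lost their call without 0h clone4_1, at adjusted p of 0.062 and 0.12. The large core proteins Uqcrc1 and Uqcrc2 were not called. Uqcrb (ENSMUSG00000021520), a small subunit that binds ubiquinone, was at 10.04, 11.3 and 10.54 CPM in the 0h libraries and 7.94, 23.9, 17.8 and 16.2 in those of 4h, which overlap. Its rise of 0.66 (SE 0.223, adjusted p = 0.0242) turned to −0.148 with total count scaling, 0.58 relative to the shifted median, and was lost in 4 of 7 fits without 1 library (0.134 without 4h clone4_2). Cycs, the mobile electron carrier cytochrome c, was at 8.99 ± 1.05, 11.4 ± 1.30, 8.32 ± 1.38 and 9.48 ± 1.21 CPM at 0h, 2h, 4h and rev. It was called in 4h vs 2h alone, lower by 0.44 (SE 0.152, adjusted p = 0.0253).

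Complex IV, cytochrome c oxidase, has several nuclear subunits with tissue-specific isoforms. Cox4i1 (ENSMUSG00000031818, chr8:120668222-120674207, plus strand), the ubiquitous form of the regulatory subunit 4, was at 93.9, 89.1 and 77.2 CPM in the 0h libraries, 98.5, 74.5, 66.9 and 97.6 in those of 2h, 26.9, 42.5, 48.3 and 34.3 in those of 4h, and 83.1, 65.4, 84.0 and 67.5 in those of rev. The 4h libraries lay below all others without overlap. The fall was 1.18 on the log2 scale (SE 0.174, adjusted p = 5.18e-05), or 2.26-fold, and the rise in rev 0.97 (SE 0.163, adjusted p = 0.000243). Its exons share positions with Emc8 on the opposite strand. The other isoform, Cox4i2, had at most 3 counts in any library. Cox7a2 and its relative Cox7a2l, which takes part in the joining of complexes III and IV, fell by 0.65 and 0.79 and rose by 0.76 and 0.69. Cox7a2l was at 17.5, 17.3 and 17.0 CPM in the 0h libraries, 18.3, 15.7, 15.3 and 19.8 in those of 2h, 11.0, 10.1, 10.02 and 9.05 in those of 4h, and 17.6, 15.4, 17.9 and 13.7 in those of rev, and the 4h libraries lay apart from the rest. Cox7a1, the heart and muscle form, had at most 11 counts in any library. Cox6c fell by 0.34 and rose by 0.45, and Cox5b and Cox7b, not called in 4h vs 0h, rose in rev vs 4h by 0.39 and 0.60. Cox6a1 and Cox6b1 were not called, at −0.11 and −0.04.

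Cox7c and Cox8a of complex IV rose in 4h vs 0h, by little. Cox7c was at 18.3, 16.0 and 15.5 CPM in the 0h libraries and 23.2, 26.2, 23.0 and 18.5 in those of 4h, a rise of 0.43 (SE 0.135, adjusted p = 0.0153). Cox8a was at 34.1, 35.0 and 35.3 CPM and 37.9, 45.9, 39.6 and 44.9, a rise of 0.28 (SE 0.107, adjusted p = 0.0384), and fell by 0.29 in rev (SE 0.0982, adjusted p = 0.0289). Neither pair of groups overlapped, but the lowest 4h library of Cox7c was close to the highest of 0h. The rises turned to −0.318 and −0.447 with total count scaling, the later fall of Cox8a turned to 0.117, and relative to the shifted median of all genes they stood at 0.41, 0.28 and −0.33. The calls in 4h vs 0h were lost in 3 (Cox7c, largest adjusted p 0.0782, without 0h clone8_2) and 5 (Cox8a, 0.148, without 0h clone8_2) of 7 fits with 1 library omitted. Cox8a also lost its 4h vs 0h call with the replicate block (adjusted p = 0.0601).

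Cox6b2 (ENSMUSG00000051811, chr7:4751792-4753094, minus strand), known as the testis form of subunit 6b, differed in its time course from most of the set. It was at 8.69, 17.2 and 14.5 CPM in the 0h libraries, 7.26, 4.86, 7.85 and 11.0 in those of 2h, 8.55, 11.1, 13.7 and 15.1 in those of 4h, and 7.01, 3.41, 10.3 and 8.92 in those of rev. Levels were high at 0h and 4h and low at 2h and rev, with overlap between the groups, and clone 8 was higher than clone 4 (0.72 on the log2 scale, adjusted p = 0.00121). The log2 fold change was −0.66 in 2h vs 0h (SE 0.203, adjusted p = 0.0529, not called), 0.66 in 4h vs 2h (SE 0.2, adjusted p = 0.0122), −0.74 in rev vs 4h (SE 0.201, adjusted p = 0.00711) and −0.75 in rev vs 0h (SE 0.203, adjusted p = 0.0204). It was the 1 gene of the set called in rev vs 0h, and that call was lost in 4 of 7 fits without 1 library (0.0891 without 0h clone8_1). Without the clone term all 3 calls were lost, with an adjusted p of 0.132 in 4h vs 2h, 0.126 for rev against 0h and 0.113 for rev against 4h. They were also lost in thinned counts (0.0654, 0.0994 and 0.158 in that order). With total count scaling, Cox6b2 stood at 0.060 in 4h vs 2h (adjusted p = 0.89) and −0.283 in rev vs 4h (0.51). Relative to the shifted median of all genes these were 0.63 and −0.73.

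Complex V held the largest fall of the set. Of 17 genes, 9 fell and 1 rose in 4h vs 0h, and 10 rose and 0 fell in rev vs 4h. Atp5e (ENSMUSG00000016252, chr2:174461072-174464105, minus strand), the epsilon subunit of the central stalk, was at 20.0, 24.7 and 25.0 CPM in the 0h libraries, 25.6, 12.0, 14.4 and 25.7 in those of 2h, 10.4, 2.96, 5.46 and 5.28 in those of 4h, and 21.9, 14.6, 23.5 and 14.6 in those of rev. The 4h libraries were lowest without overlap, and the 2h and rev libraries fell into a higher and a lower pair. The fall was 2.02 (SE 0.38, adjusted p = 0.00119), or 4.06-fold, and the rise in rev 1.72 (SE 0.362, adjusted p = 0.00333). Atp5mpl, a small subunit of the membrane part, went from 10.4, 12.0 and 11.9 CPM in the 0h libraries through 13.1, 13.4, 12.0 and 13.6 in those of 2h to 4.28, 6.42, 7.06 and 3.77 in those of 4h and 12.3, 11.2, 13.7 and 10.3 in those of rev, and no 4h library overlapped with another group. It fell by 1.03 (SE 0.183, adjusted p = 0.000155) and rose by 1.09 (SE 0.174, adjusted p = 6.25e-05). Atp5k (−0.70), Atp5j2 (−0.65), Atp5h (−0.53), Atp5f1 (−0.39) and Atp5o (−0.33), mostly of the stator and membrane parts, also fell, and rose in rev by 0.49 to 0.83. Atp5s, called a coupling factor, was at −0.60 (adjusted p = 0.206) in 4h vs 0h and rose by 0.98 in rev vs 4h.

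The catalytic head behaved unevenly. Atp5a1, the alpha subunit, went from 351.1 ± 36.2 CPM (n = 3) to 280.9 ± 22.4 (n = 4), a fall of 0.33 (SE 0.0984, adjusted p = 0.0108) that lost its call without 0h clone4_1 (adjusted p = 0.0964). Atp5b, the beta subunit, was at 507.2 ± 7.37, 516.7 ± 30.0, 524.1 ± 34.6 and 526.1 ± 28.5 CPM at 0h, 2h, 4h and rev. Its log2 fold change in 4h vs 0h was 0.05 (SE 0.0742, adjusted p = 0.592). Per length, Atp5b had the highest level of the set at 0h, 265.0 CPM per kb of transcript, ahead of Cox4i1 at 113.0, and the median level was 31.8 CPM per kb in complex V, 25.1 in complex IV, 23.7 in complex III, 21.4 in complex II and 15.4 in complex I. The Ndufaf assembly factors had a median of 4.03 CPM per kb.

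The genes Atp5g1, Atp5g2 and Atp5g3 encode the same mature c subunit of the membrane ring and differ in their targeting sequences. Atp5g3 was at 45.0, 48.3 and 44.6 CPM in the 0h libraries, 51.8, 51.7, 43.1 and 55.8 in those of 2h, 17.7, 26.9, 38.0 and 24.5 in those of 4h, and 51.5, 45.1, 55.8 and 49.8 in those of rev. It fell by 0.75 (SE 0.154, adjusted p = 0.000659) and rose by 0.91 (SE 0.145, adjusted p = 7.26e-05), with the 4h libraries below all others. Atp5g2 moved the other way: 10.3, 8.15 and 9.81 CPM in the 0h libraries, 8.17, 9.29, 7.67 and 7.12 in those of 2h, 11.0, 11.4, 14.8 and 15.1 in those of 4h, and 10.2, 8.67, 9.45 and 12.0 in those of rev. Its 4h libraries were above those of 0h and 2h and overlapped with rev. The rise was 0.48 over 0h (SE 0.172, adjusted p = 0.03) and 0.70 over 2h (adjusted p = 0.00155). The former turned to −0.259 with total count scaling, 0.47 relative to the shifted median, and was lost in 4 of 7 fits without 1 library (0.158 without 0h clone8_1). Atp5g1 stood at −0.30 (adjusted p = 0.138).

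**Figure D3:**
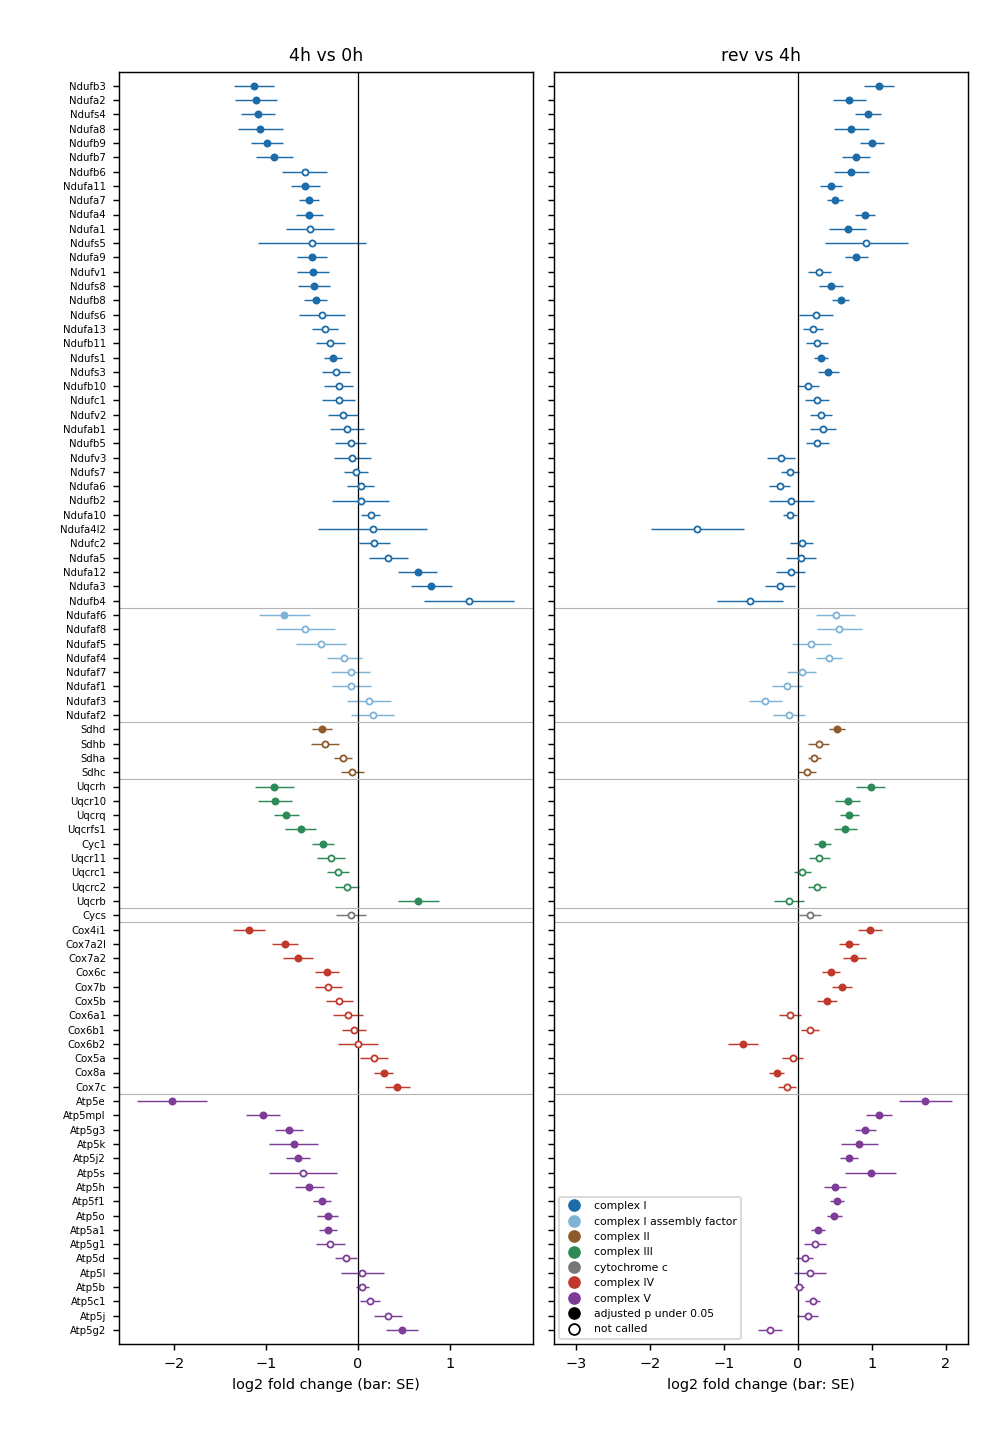
Log2 fold change of 88 of the 89 tested genes (points, with the SE) in 4h vs 0h (left) and rev vs 4h (right), grouped by complex, filled where the adjusted p was under 0.05. Most filled points lie left of 0 on the left (34 of 40) and right of 0 on the right (38 of 40), and the panels share the 4h libraries.

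**Figure D4:**
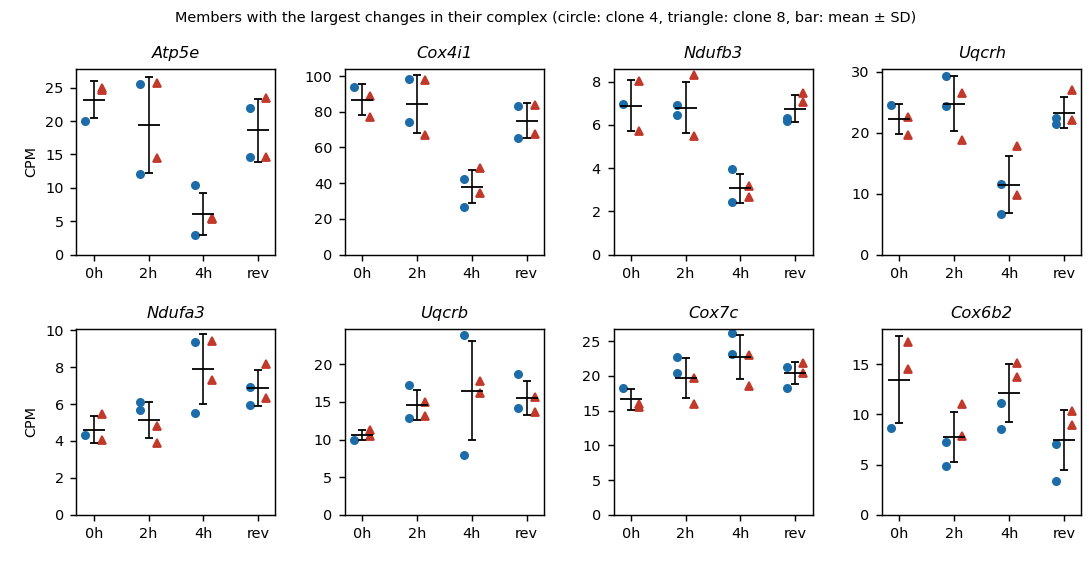
CPM in each library by group (circles, clone 4; triangles, clone 8; bars, mean and SD) for Atp5e, Cox4i1, Ndufb3 and Uqcrh, which fell at 4h, for Ndufa3, Uqcrb and Cox7c, which rose on the TMM scale (with total count scaling Uqcrb and Cox7c stood at −0.148 and −0.318, or 0.58 and 0.41 relative to the shifted median of all genes), and for Cox6b2. Atp5e lies between 2.96 and 10.4 CPM at 4h, below its lowest value in any other group, 12.0.

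After 2 h of induction, no member was called by edgeR's quasi-likelihood test, against 6.45% of all tested genes (3.98% higher, 2.46% lower). By unadjusted p under 0.05, 6 members differed, 4 higher and 2 lower, and DESeq2 called 1. The median log2 fold change was 0.07, beside 0.01 for all genes, and with total count scaling it was −0.121, beside −0.181. In the same comparison 7 of the 10 ERK output genes were called higher and 1, Etv4, lower (−0.47, SE 0.129). In rev vs 0h, 11.2% of all genes were called (6.49% higher, 4.66% lower) against 1 member, Cox6b2, which was lower; unadjusted p gave 9 and DESeq2 called 3, and the median was 0.04 beside 0.02.

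The 2 clones were described apart with separate group effects per clone. Clone 4 had 1 library at 0h, so only effect sizes are given for its comparisons with 0h, and its spread there is not known. In 4h vs 0h, the median of the members was −0.38 in clone 4 and −0.26 in clone 8. In clone 8, 16 members fell and 2 rose, where 26.5% of all genes were called (14.1% higher, 12.4% lower). In rev vs 4h, 30 rose and 1 fell in clone 4 (17.0% of all genes called, 8.57% higher and 8.39% lower) and 22 rose and 1 fell in clone 8 (23.4%, 11.5% higher and 11.9% lower). No member was called for a difference between clones in the time course: edgeR's joint test of 3 interaction coefficients gave 3 at an unadjusted p under 0.05 and a lowest adjusted p of 0.262, where 3.18% of all genes were called, and the test for rev vs 4h alone gave 5 and 0.168, where 2.8% were. DESeq2 was not run on this term. The joint test also rests on 1 library of clone 4 at 0h. In 4h vs 0h, Cox4i1 was lower by 1.42 in clone 4 and by 1.01 (SE 0.225) in clone 8, and Ndufb3 by 1.04 and 1.22 (SE 0.289). Atp5e fell by 2.20 (SE 0.581, adjusted p = 0.0226) in clone 8 and stood at −1.74 in clone 4. Uqcrh stood at −1.37 in clone 4 and at −0.60 (SE 0.245, adjusted p = 0.0767) in clone 8. Apart from the time course, clone 8 exceeded clone 4 in Cox6b2 and in Ndufa9 (0.69, adjusted p = 9.23e-05) and was lower in Ndufaf7 (−0.59, adjusted p = 0.0042) and Sdhd (−0.26, adjusted p = 0.0204), 4 of 89 members against 18.5% of all genes (10.4% higher, 8.11% lower).

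The subunits encoded in mitochondrial DNA went the other way. Of the 13, 7 passed the filter (mt-Nd1, mt-Nd2, mt-Nd4, mt-Nd5, mt-Nd6, mt-Cytb and mt-Co1), and all 7 rose in 4h vs 0h, with a median of 2.59 on the log2 scale and mt-Nd4 highest at 2.74 (SE 0.575, adjusted p = 0.00368). In rev vs 4h, 6 of the 7 fell. The other 6, which include mt-Co2, mt-Co3 and mt-Atp6, are listed at 0 or 1 count, which bears on how these rows were counted and was not tested. The summed level was 2601, 2426 and 2904 CPM in the 0h libraries, 2574, 7507, 5710 and 1818 in those of 2h, 15300, 18880, 11640 and 16030 in those of 4h, and 4059, 8066, 3740 and 6049 in those of rev. In the same order, the nuclear subunits' share of the remaining counts (as above) was 0.871%, 0.84% and 0.813% in the 0h libraries, 0.86%, 0.796%, 0.772% and 0.876% in those of 2h, 0.665%, 0.697%, 0.747% and 0.661% in those of 4h, and 0.863%, 0.803%, 0.893% and 0.808% in those of rev. The 4h libraries were highest in the one and lowest in the other. At 2h, clone4_2 and clone8_1 were high in mitochondrial sums and low in nuclear shares, in Atp5e and in Cox4i1, and in rev clone4_2 and clone8_2 were. The part of the mitochondrial reads in the results was not tested. When the 20 most abundant genes and those of the mitochondrial genome were left out of the fit, the numbers called in 4h vs 0h, rev vs 4h and 4h vs 2h stayed within 1.5 times.

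Other gene groups were counted in the same way. Of 77 tested genes of the mitochondrial ribosome, which translates the mitochondrially encoded subunits, 25 fell and 5 rose in 4h vs 0h (median −0.27), and 18 rose and 4 fell in rev vs 4h. Of 82 genes of the cytosolic ribosome, 64 fell and 5 rose (median −0.61), and 62 rose and 5 fell in rev vs 4h. Of 29 assembly factors of complexes II to V, 8 fell and 2 rose, with Cox11, a copper chaperone of complex IV, at −1.46 (SE 0.473) and Coa5 at 0.45. Of 11 complex I assembly factors outside the symbol rule, 2 fell and 0 rose, with Dmac2 at −0.70. Of 17 genes of the tricarboxylic acid cycle and pyruvate dehydrogenase, 4 fell and 3 rose, with fumarase Fh1 at −0.62 and Idh3g, a subunit of isocitrate dehydrogenase, at 0.51. Of 8 carriers and channels of the mitochondrial membranes, 2 fell and 1 rose: the adenine nucleotide carrier Slc25a4 was at −0.68 and the uncoupling protein Ucp2 at 0.81. Of 14 regulators of nuclear mitochondrial genes, 2 fell and 5 rose. Esrra, a nuclear receptor that acts on many subunit promoters, fell by 1.21 (SE 0.245, adjusted p = 0.000515), and Myc rose by 3.96 (SE 0.622, adjusted p = 0.000598). The counts in 4h vs 0h are read against 18.9% of genes called lower and 20.5% called higher, and those in rev vs 4h against 15.6% and 15.1%.

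Transcript length went weakly with the change in 4h vs 0h, in the set and outside it. Spearman's rho was 0.15 over the 89 members and 0.16 over all 12181 tested protein-coding genes. The 89 tested members had a median transcript of 934 nt, against 3111 nt for 12181 tested protein-coding genes. A division at 1000 nt was chosen after the values were seen. Of the 48 members at or below it, 21 fell and 5 rose in 4h vs 0h (median −0.36), beside 37.3% and 11.8% of 574 other protein-coding genes of that length (median −0.32). Of the 41 longer members, 14 fell and 1 rose (median −0.24), beside 18.8% and 21.6% of 11513 other genes (median 0.03). In rev vs 4h, 24 of the short members rose and 2 fell (median 0.45), beside 32.9% and 9.41% (median 0.29), and 15 of the longer members rose and 0 fell (median 0.27), beside 14.7% and 16.7% (median 0.00). With an offset for transcript length and GC content, 23 members fell and 14 rose in 4h vs 0h, beside 19.2% and 20.9% of all genes in that fit, with a median of −0.156. In rev vs 4h, 28 rose and 8 fell, beside 15.3% and 17.3%, with a median of 0.210. With that offset, Atp5e still fell by 1.57 (adjusted p = 0.00456), Cox4i1 by 0.76 (adjusted p = 3.64e-05), Ndufb3 by 0.96 (adjusted p = 0.00114) and Uqcrh by 0.65 (adjusted p = 0.00663), while the calls of Ndufv1 (adjusted p = 0.126), Cyc1 (0.192), Cox7a2 (0.0561) and Ndufaf6 (0.0509) were lost. Rises in 4h vs 0h were larger in edgeR's test with the offset than without it. Ndufa3 rose by 1.13 (adjusted p = 0.000214), Uqcrb by 0.844 (0.00103) and Cox7c by 0.685 (0.000127). Cox8a rose by 0.792 (adjusted p = 4.9e-05) and Atp5g2 by 0.888 (0.000322).

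**Figure D5:**
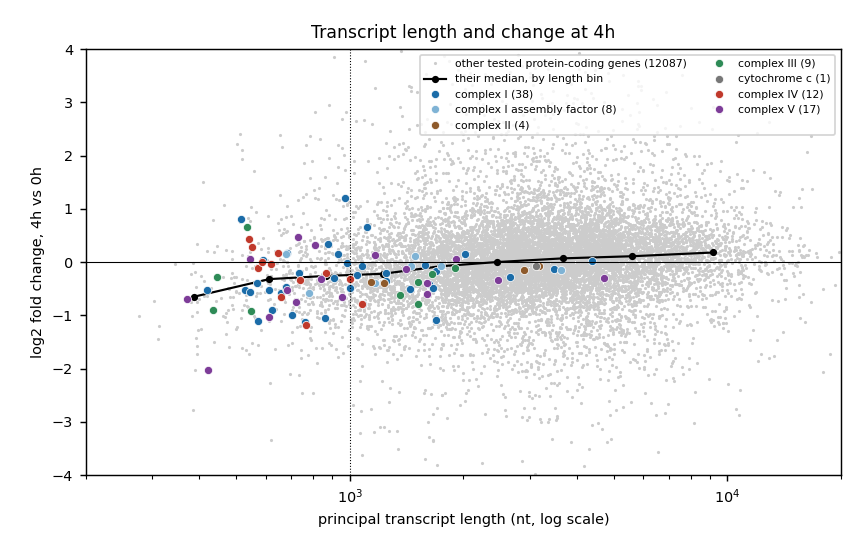
Log2 fold change in 4h vs 0h against transcript length (log axis) for the 89 members (points coloured by complex) and 12087 other protein-coding genes (grey points, with a black line for their median by length bin and a dotted line at 1000 nt). The medians of the other genes run from −0.65 at 300 to 500 nt to 0.18 at 7000 to 12000 nt, and members lie on both sides of them.

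Of the 77 promoter windows, 24 belonged to genes that fell in 4h vs 0h. An NRF1 match lay in 29.2% of these, an ETS match in 29.2% and an Sp match in 29.2%, beside 22.2%, 20.0% and 55.6% of the 45 windows of members that were not called. A YY1 match lay in 20.8% beside 8.89%, and a CRE match in 8.33% beside 6.67%. The numbers are small, and a match describes letters in the window.

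Several limits apply to single genes. Exons of 32 members share positions with another annotated gene, and many short subunits have processed pseudogenes among which reads can be split, so values of single genes are uncertain to that extent. Ndufb1-ps, a non-coding row by its annotation and no member, was at −1.10 (adjusted p = 0.0056) in 4h vs 0h and 1.37 (adjusted p = 0.000845) in rev vs 4h. On counts thinned to the depth of the shallowest library, 80 members passed the filter. Of these, 17 fell and 1 rose in 4h vs 0h, beside 14.2% and 14.9% of all genes tested, and 25 rose and 0 fell in rev vs 4h, beside 10.3% and 12.0%. Among the 4h vs 0h calls lost in thinned counts were those of Ndufb3 (−0.71, adjusted p = 0.25), Ndufs1 (0.432), Ndufv1 (0.118), Cyc1 (0.18), Uqcrb (0.149), Cox7c (0.126), Cox8a (0.374), Atp5a1 (0.0792) and Atp5g2 (0.11). The number of genes that rose in 4h vs 0h, 6, was 3 without 0h clone8_1, without 4h clone4_2 or without 4h clone8_1, and 1 without 0h clone8_2.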

How the data were processed

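Total RNA was depleted of ribosomal RNA and made into libraries with a NEBNext Ultra II kit, per the labels' protocols. The authors deposited raw counts per gene, whole numbers with no normalization stated. The submitters' processing notes name bcl2fastq 2.19.1, STAR 2.5.3a and the build mm10. The counter, the annotation release and the use of strand are not given in the sources used here. The authors discarded 1 sample of 0h in quality control, per the series text. Names, biotypes, positions and lengths came from GENCODE M21 (GRCm38), which held 52489 of the 52636 identifiers.

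Counts were analysed with edgeR 4.0.16 in R 4.3.3. The filter was filterByExpr by group, with a minimum count of 10 and a minimum total of 15, and left 13451 genes. Libraries were TMM-scaled. The quasi-likelihood F test (two-sided, robust) used group plus clone over all 15 libraries, with Benjamini-Hochberg adjustment over all genes and a threshold of 0.05. Clone differences used group effects per clone. DESeq2 1.42.0 was an alternative. CPM is on TMM-scaled libraries, with the SD over the libraries of a group. In the thinned alternative, the 20 most abundant and the mitochondrial genes were first left out. Libraries were then thinned to 525094 counts in a single random draw. The main edgeR fit was run on simulated counts with known changes at 4h, in 4h vs 0h and rev vs 4h. Far fewer genes changed there than were called here. The simulation did not cover the alternatives or the fit per clone.

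The members, the lists, the alternatives and the rule for naming genes were chosen with earlier results of these data known. Named with values are, in each complex, the called gene with the largest rise and fall in 4h vs 0h and rev vs 4h, the isoform sets and the catalytic subunits. Other genes named were chosen after their values were seen. Reads carried no molecular identifiers, and counts below about 3 in a library (0.161 to 1.83 CPM) say little. Values of 1 member are not reported here, although counts over the members include it.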

Additional observations from a re-analysis of the deposited data

Results flagged for a closer look

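For the 28 named genes that passed the filter, the summed level of the 89 tested members and that of the mitochondrially encoded subunits, the 90 groups of 4 libraries were checked for 1 library far from the other 3, by its gap to the nearest of them over the range of the group. Chance picks about 1 in 20 groups. Ndufa4l2 at 4h had a lowest library of 0.455 CPM, with the other 3 between 1.13 and 1.23. Cox6b1 in rev had a highest library of 24.7 CPM, with the others between 21.2 and 21.4. The 4h values of Ndufa4l2 rest on 2 to 5 counts each. Neither gene was called in a comparison over both clones.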

How the results depend on the processing

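The alternatives left the direction of the member median as it was in rev vs 4h and in both comparisons of 4h with 0h or 2h. The share of all genes called was taken for total count scaling, thinning and the offset in 4h vs 0h and rev vs 4h. It was also taken for the fit with group effects per clone. Other counts in this section have no such share beside them and are not read against a background. Whether the replicate numbers pair the libraries could not be settled. Correlations of deviations ran from −0.194 to 0.261, and with 2 libraries per clone and group the deviations are mirror images. With the replicate number as a block, 34 members fell and 5 rose in 4h vs 0h, and 39 rose and 2 fell in rev vs 4h. With total count scaling, the median was −0.121 for 2h vs 0h, −1.040 for 4h vs 0h, −0.926 for 4h vs 2h, 0.717 for rev vs 4h and −0.286 for rev vs 0h. The calls were then 0 higher and 69 lower in 4h vs 0h, 0 higher and 63 lower in 4h vs 2h, 0 lower in rev vs 4h and 0 lower between clones. Under that scaling Uqcrb (−0.148), Cox7c (−0.318), Cox8a (−0.447) and Atp5g2 (−0.259) reversed in 4h vs 0h, and Cox8a (0.117) in rev vs 4h. With no filter beyond 1 count, the median was −0.421 in 4h vs 0h, −0.451 in 4h vs 2h and 0.374 in rev vs 4h, and 1 member was lower in rev vs 4h. In counts thinned to 1 depth, 1 rose and 17 fell in 4h vs 0h, 25 fell in 4h vs 2h, and 25 rose and 0 fell in rev vs 4h. With the length and GC offset, 14 rose and 23 fell in 4h vs 0h (median −0.156), 9 rose in 4h vs 2h (−0.204) and 8 fell in rev vs 4h (0.210). With the groups compared alone, 3 rose in 4h vs 0h, and without the clone term 1 fell in rev vs 4h. Values within a clone came from the fit with group effects per clone over all libraries, not from a fit to 1 clone. In clone 4, the median was −0.381 in 4h vs 0h (1 library at 0h), 0 rose in 4h vs 2h and 1 fell in rev vs 4h. In clone 8, 2 rose and 16 fell in 4h vs 0h, 17 fell in 4h vs 2h (−0.277), and 22 rose and 1 fell in rev vs 4h. In 2h vs 0h, 1 member was lower with DESeq2, no filter, the groups compared alone, the older quasi-likelihood fit (an alternative chosen after seeing the data) or without the most abundant and mitochondrial genes. In rev vs 0h, members called higher were 2 with DESeq2, no filter or the offset, 4 without the most abundant and mitochondrial genes or with the older fit, 1 when thinned and 6 with the groups compared alone. Those called lower were 0 when thinned or without the clone term, and 2 with the groups compared alone. The rev vs 0h median in clone 4 was −0.042 in the fit with group effects per clone. Leaving out 1 library at a time gave 0 to 1 lower in 2h vs 0h; 1 to 6 higher and a median of −0.382 to −0.253 in 4h vs 0h; 1 to 5 higher in 4h vs 2h; 1 to 3 lower in rev vs 4h; 0 to 2 higher, 0 to 1 lower and a median of −0.045 to 0.061 in rev vs 0h; and 1 to 4 lower between clones. The cause of these changes was not tested. Depth limits 4h most, where 3 counts correspond to 0.683 to 1.83 CPM.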
